A study of Homo sapiens with 54 samples.

Results

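The 34 genes described here encode proteins of the centrosome and of the centrioles at its core. They were taken as a list of gene names out of 55906 gene rows in each expression table, and the list holds CEP192, OFD1 and CNTRL, genes whose exons the study examined by RT-PCR. All 34 had a row in the table of each cell line and all 34 passed the filter on low values in each.

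Poly(A) RNA was sequenced from 4 human cancer cell lines after loss of TRA2A, TRA2B or both, paralogous splicing factors, in 54 libraries that form 18 groups of 3. A549 and NCI-H23 are lung carcinoma lines that stably expressed the transcriptional repressor Zim3-dCas9, so that guide RNAs gave CRISPRi knockdown (KD): the groups were Control KD, KD of TRA2A, KD of TRA2B, and KD of both (dual KD). LN229 and LN319 are glioma lines that stably expressed either luciferase (Luc) or TRA2B cDNA (TRA2B-OE, overexpression) and received Cas9 with guides for knockout (KO): the groups were Luc Control KO, Luc TRA2A KO, Luc TRA2B KO, TRA2B-OE Control KO and TRA2B-OE TRA2A KO. Controls carried the same repressor or nuclease with guides to safe-harbour loci, and every group was a pooled transduced population rather than a clone, so that a KO library can mix edited and unedited cells. The study classed NCI-H23 and LN319 as dependent on TRA2A and A549 and LN229 as independent of it. The sources do not say whether the 3 libraries of a group came from separate cultures, so p-values measure only the spread between these libraries.

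A centrosome is a pair of centrioles in a cloud of pericentriolar material, which anchors gamma-tubulin ring complexes and so nucleates microtubules. Centrioles duplicate once per cell cycle under the kinase PLK4 with STIL and SASS6, grow by elongation factors that capping proteins restrain, and carry distal and subdistal appendages that dock a primary cilium and anchor microtubules, while centriolar satellites ferry components around them. TRA2A and TRA2B bind GAA-rich stretches of exons and mostly promote inclusion of those exons.

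The values here are expression levels per gene, in TPM, a unit that corrects for transcript length and library total, and carry no information on single exons. The exons that lie between the RT-PCR primers of the study are described because they are the places in these 3 genes where the study looked for an effect of TRA2 proteins. OFD1 exon 20, CNTRL exon 5 and CEP192 exon 12 are printed, with each GAA in capitals. The other exons between the CEP192 primers are counted below but not printed. Sequences are from hg38 and exon numbers count along the Gencode v44 canonical transcript. All 3 genes lie on the plus strand. OFD1 exon 20 (chrX:13767127-13767284) was 158 bases long, of which dividing by 3 leaves 2, and held 20 GAA on the sense strand. CNTRL exon 5 (chr9:121094888-121095018) was 131 bases long, remainder 2, with 7 GAA. It is the exon between primers that match exons 4 and 6, and the study numbers it 4. CEP192 primers match exons 11 and 16, and exon 12 (chr18:13037237-13037301), 65 bases with remainder 2, is the first of the 4 exons between them and held 4 GAA.
OFD1 exon 20: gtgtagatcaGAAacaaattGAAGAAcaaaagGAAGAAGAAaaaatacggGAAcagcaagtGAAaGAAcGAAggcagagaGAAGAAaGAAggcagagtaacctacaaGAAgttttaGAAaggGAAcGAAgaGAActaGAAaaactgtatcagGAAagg
CNTRL exon 5: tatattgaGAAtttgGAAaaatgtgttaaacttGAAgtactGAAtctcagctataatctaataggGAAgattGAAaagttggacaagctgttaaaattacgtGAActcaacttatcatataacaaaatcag
CEP192 exon 12: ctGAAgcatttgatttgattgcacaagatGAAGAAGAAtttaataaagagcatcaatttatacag

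The 3 letters GAA are common, so the counts were set against internal exons of all canonical protein-coding transcripts with a length within 10%. As many as 20 GAA were found in 0.00761% of 26273 such exons for OFD1 exon 20, whose like exons held a median of 3. For CNTRL exon 5, 8.18% of 30538 like exons held as many as 7. For CEP192 exon 12, 14.2% of 10373 like exons held as many as 4, and exons 13, 14 and 15 held 5, 5 and 4, counts matched or passed by 47.7%, 24.0% and 40.1% of like exons. On the opposite strand OFD1 exon 20, CNTRL exon 5 and CEP192 exon 12 held 0 GAA, and CEP192 exons 13, 14 and 15 held 2, 1 and 2. The exons that the primers match varied too. OFD1 exons 19 and 21 held 2 and 12 GAA, counts matched or passed by 71.9% and 1.35% of like exons. CNTRL exons 4 and 6 held 2 and 7 (76.8% and 10.4%), and CEP192 exons 11 and 16 held 3 and 24 (61.0% and 24.6%). Each set of like exons includes the exon itself. A match of letters is a description and not a binding site. The members as a whole are transcripts of many exons, with a median of 19.5 exons and 5578 bases against 8 exons and 2899 bases over 19701 protein-coding genes.

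In control libraries every member was expressed. Mean levels ran from 4.18 TPM (SASS6) to 93.9 TPM (PCM1, the scaffold of centriolar satellites) in A549, from 4.22 (CEP68) to 95.2 (CEP250) in NCI-H23, from 3.92 (CEP68) to 71.0 (CDK5RAP2) in LN229 and from 5.24 (CEP290) to 134 (PCM1) in LN319. The medians over members were 15.1, 18.2, 20.5 and 24.8 TPM. CEP250 and CEP68, which tie the centrioles to each other at their base, stood near opposite ends of the range in A549, NCI-H23 and LN229, whereas in LN319 CEP250 ranked 12 of 34 at 35.8 TPM. CEP250 was at 95.2 ± 1.87 TPM (SD, n = 3) in NCI-H23, where CEP68 was at 4.22 ± 0.82. The 4 tables were made separately, so that the order of genes within a line can be read but levels between lines were not tested.

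**Figure D1:**
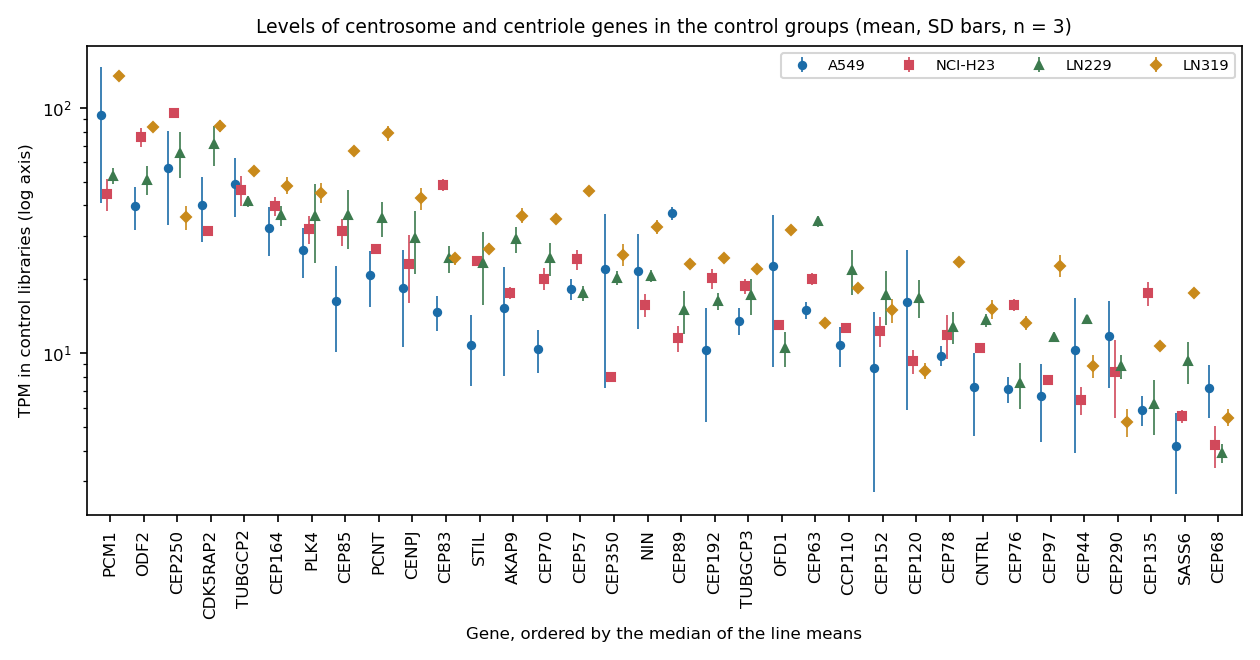
Mean TPM of the 34 genes (log axis) in the control groups of 4 lines (A549 and NCI-H23 Control KD, LN229 and LN319 Luc Control KO; bars, SD, n = 3), ordered by the median of the line means. PCM1, ODF2 and CEP250 stand highest and CEP68 lowest, and the SD bars of A549 are the widest for many genes.

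Changes were fitted per line with limma on log2(TPM + 0.1) after scaling, all groups of a line together, and a gene is said to be called, to have risen or to have fallen where the Benjamini-Hochberg adjusted p over all genes tested was under 0.05. With 3 libraries against 3, an exact two-sided permutation test of 1 gene could not go below p = 0.1. The targeted genes were lower in each group labelled with their loss, except TRA2A in LN229 TRA2B-OE TRA2A KO, which was at 87.2% of its control and not called (adjusted p = 0.0793). TRA2A was at 9.56% of Control KD in A549 TRA2A KD and 6.54% in NCI-H23 TRA2A KD, TRA2B was at 9.68% and 10.6% in the TRA2B KD groups, and in the dual KD TRA2A was at 13.9% and 20.5% and TRA2B at 16.3% and 25.2%. TRA2A KO left 62.9% of TRA2A RNA in LN229 and 33.2% in LN319, and TRA2B KO left 66.0% and 35.1% of TRA2B RNA, values that do not measure protein. TRA2B-OE raised TRA2B to 374% and 873% of Luc Control KO, and TRA2A KO on top of it left 52.8% of TRA2A RNA in LN319. With TRA2B-OE, TRA2A itself was lower, at 73.4% of Luc Control KO in LN229 (adjusted p = 0.00713) and 85.2% in LN319 (adjusted p = 0.0466). In LN229 TRA2A was at 80.2 TPM in TRA2B-OE Control KO and 69.9 in TRA2B-OE TRA2A KO, beside 68.8 in Luc TRA2A KO. The share of mitochondrial transcripts was 15.4 to 23.8% in A549, 17.8 to 33.4% in NCI-H23, 6.02 to 8.31% in LN229 and 12.1 to 20.6% in LN319. A549 Control KD replicate 3 stood apart, with a median correlation of 0.835 with the other A549 libraries, and A549 values that it moved by over 1.5 times, or whose call it decided, are given with and without it for the members named. The keratins KRT8 and KRT18 reached at least 445 TPM in every A549 and NCI-H23 library, while other epithelial markers were low in NCI-H23 (median CDH1 1.65 TPM, EPCAM 1.34, KRT19 0.249). Of the glioma markers VIM was at 2264 TPM or more in every LN229 and LN319 library, but GFAP had medians of 2.66 and 1.83 TPM and OLIG2 was at 0.0253 in LN319, where the epithelial cadherin CDH1 had a median of 123.

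Across 14 comparisons 29 of the 34 members (85.3%) were called at least once, near the 79.6% of 13381 genes tested in all 4 lines. Of these, 17 were called only as lower, 5 only as higher and 7 in both directions. This split was not counted over all genes, and comparisons within a line can share control libraries, so it describes the members only. CEP135, CEP290, CEP350, CEP63 and CEP97 were called in none. The calls sat mainly in the dual KDs of A549 and NCI-H23 and in the KOs of LN319. OFD1, a protein of centriolar satellites and of the distal centriole that is needed for cilium formation, was lower in 5 comparisons, more than any other member, and higher in 1.

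**Figure D2:**
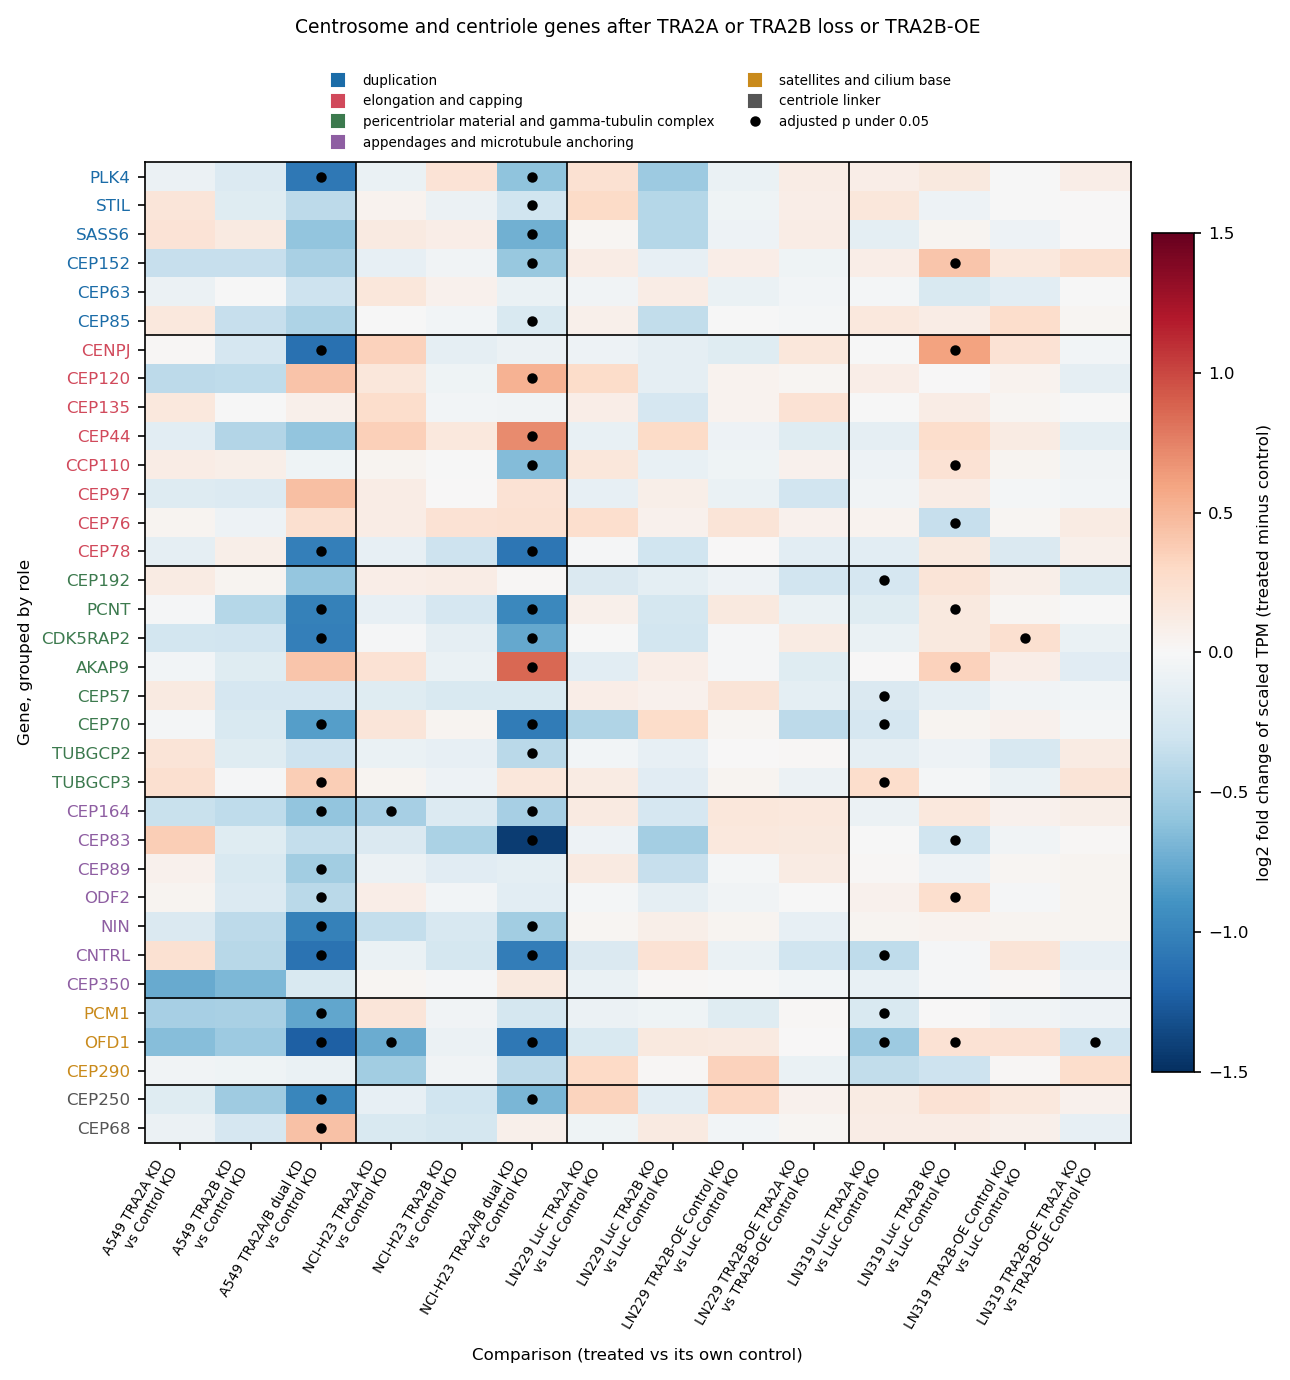
Log2 fold change (colour, treated minus control, scaled TPM) of the 34 genes in 14 comparisons, genes coloured and divided by role, lines divided by vertical bars, dots marking adjusted p under 0.05. The dots gather in the dual KD columns of A549 and NCI-H23 and in the LN319 columns, and there are none in the LN229 columns.

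Single loss of TRA2A asks what the absence of 1 paralog does while the other remains. TRA2B RNA was then at 118% of Control KD in A549 and 148% in NCI-H23. It was at 113% of Luc Control KO in LN229 and 119% in LN319. Only the rise in NCI-H23 was called (adjusted p = 0.0237). Few members moved in the lung lines. In NCI-H23 OFD1 fell from 12.5, 13.4 and 13.3 TPM in Control KD to 6.65, 8.87 and 7.60 TPM in TRA2A KD. The groups did not overlap and the mean was 59.1% of control (log2 fold change -0.75 ± 0.13 SE, adjusted p = 0.0211). CEP164, the distal appendage protein that recruits the kinase needed to start a cilium, fell from 36.4, 43.6 and 39.6 TPM to 26.0, 27.4 and 29.9 (-0.50 ± 0.07, adjusted p = 0.00584). These 2 were the only members called in NCI-H23 TRA2A KD, both lower, against 0.601% of all genes tested that were lower and 0.374% that were higher. The call of OFD1 there was lost without any 1 of the 3 Control KD libraries and without TRA2A KD replicate 1 or 3. It was kept without TRA2A KD replicate 2, and over all 6 of these fits the fold change ran from -0.86 to -0.64 and the adjusted p from 0.00883 to 0.0738. CNTRL, which anchors microtubules at subdistal appendages, was at 10.3, 10.8 and 10.3 TPM in Control KD and 9.47, 9.77 and 9.65 in TRA2A KD. Its groups did not overlap, as for 8.59% of genes in that direction, but it was not called (-0.10 ± 0.11, adjusted p = 0.738). CEP192, the scaffold that recruits pericentriolar material, did not separate, with 17.9, 21.1 and 21.5 TPM in Control KD and 20.2, 18.6 and 25.5 in TRA2A KD.

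In A549 TRA2A KD no member was called in either direction by limma, 2 had an unadjusted p under 0.05, and 0.158% of all genes were lower and 0.0488% higher. OFD1 was at 15.03, 14.2 and 38.6 TPM in Control KD and 10.6, 9.82 and 15.1 in TRA2A KD. The highest control value belongs to replicate 3, the library that stood apart, and the groups overlapped (-0.64 ± 0.30, adjusted p = 0.448). Without that library the fold change was -0.27, and over the leave-one-out fits it ran from -0.86 to -0.27 with adjusted p from 0.191 to 0.739. CNTRL read 5.25, 6.26 and 10.4 TPM in Control KD against 6.40, 7.51 and 8.54, and CEP192 read 7.63, 7.13 and 16.1 against 7.57, 12.3 and 8.84. For both, the highest value was again Control KD replicate 3, without which the fold changes went from 0.23 to 0.42 and from 0.12 to 0.40, still not called.

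More members were called after loss of TRA2A alone in LN319 than in the other lines. Simulated 2-fold changes were recovered at 71.5% in LN319 Luc TRA2A KO, 66% in LN229, 58% in NCI-H23 and 45% in A549. KD libraries were also collected sooner after transduction than KO libraries. The counts therefore do not rank the lines by response. In LN319 Luc TRA2A KO 6 members were lower and 1 was higher, shares of 17.6% and 2.94%, against 7.44% and 6.82% of all genes tested. OFD1 fell from 32.6, 32.3 and 30.0 TPM to 23.1, 21.8 and 18.7, with no overlap (-0.54 ± 0.06, adjusted p = 0.000243). CNTRL fell from 14.6, 16.7 and 14.2 TPM to 13.0, 10.7 and 10.4 (-0.38 ± 0.09, adjusted p = 0.0112). CEP70, a binder of gamma-tubulin, fell from 35.5, 36.6 and 33.4 TPM to 31.3, 27.9 and 26.9 (-0.26 ± 0.05, adjusted p = 0.00765). In each of these genes the 3 KO libraries lay below the 3 controls. CEP192 was at 23.8, 25.3 and 24.0 TPM in control and 23.1, 19.5 and 17.4 after KO, also without overlap and at the edge of the threshold (-0.25 ± 0.08, adjusted p = 0.0459). PCM1 (-0.23) and CEP57 (-0.22), a pericentriolar material protein, were the other 2 that fell. TUBGCP3, a core subunit of the gamma-tubulin complex, rose from 21.0, 22.8 and 22.1 TPM to 26.6, 24.8 and 25.5 (0.26 ± 0.07, adjusted p = 0.0267). In all, 11 members (32.4%) had every KO library below every control, as did 18.8% of all genes, and 2 had every one above, as did 13.4%. None of the 6 duplication genes and none of the 8 elongation and capping genes was called.

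The calls of OFD1, CNTRL, CEP70 and PCM1 in LN319 TRA2A KO stood when any 1 library was left out. That of CEP192 was lost without any 1 control or without KO replicate 2 or 3, that of CEP57 without any 1 control or KO replicate 1 or 2, and that of TUBGCP3 without control replicate 1 or 2 or KO replicate 1 or 3. With TPM used as deposited, the share of higher calls among all calls went from 47.8% to 33.9%, and 5 members were lower and 0 higher.

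In LN229 no member was called after Luc TRA2A KO by limma, with 4 at an unadjusted p under 0.05, while 1.83% of all genes were lower and 1.86% higher. OFD1 was at 12.1, 10.6 and 8.71 TPM in control and 9.90, 7.89 and 8.69 after KO, which overlap (-0.22 ± 0.13, adjusted p = 0.352). CNTRL was at 13.96, 12.7 and 14.2 TPM against 12.6, 10.1 and 12.1, and CEP192 was at 15.1, 16.1 and 17.7 against 13.0, 13.4 and 15.02. Both sets of KO libraries lay below their controls, as for 12.8% of genes tested, and neither gene was called (each -0.22, adjusted p = 0.249 and 0.346). The residual TRA2A RNA of 62.9% is a limit of this comparison.

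**Figure D3:**
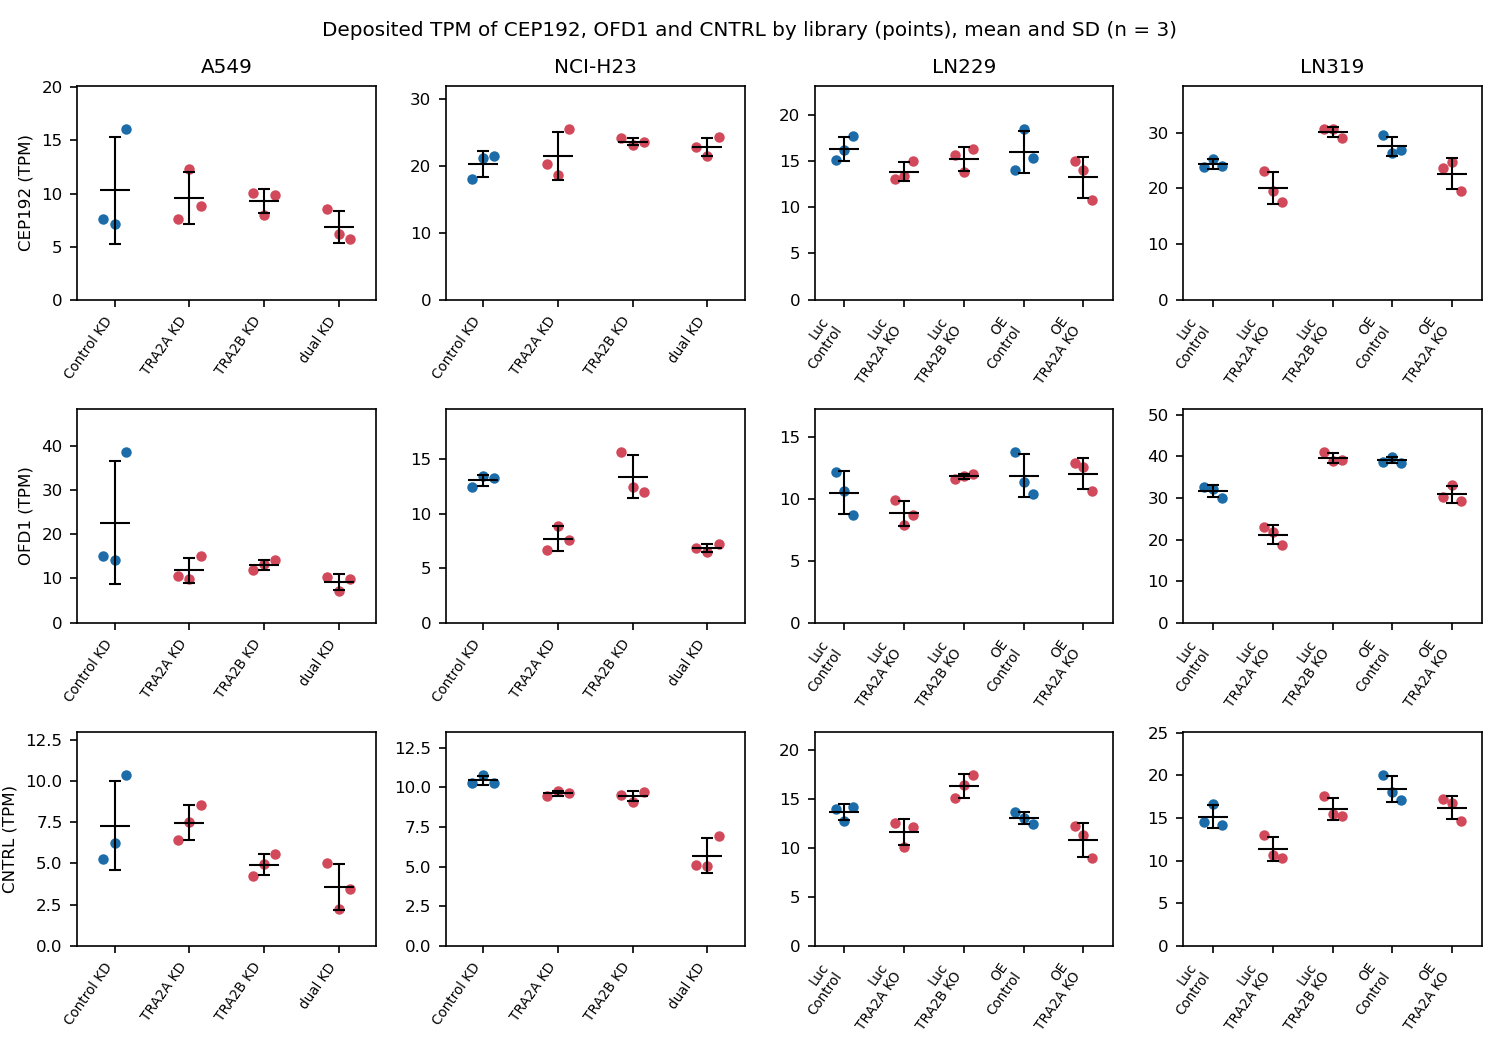
Deposited TPM of CEP192, OFD1 and CNTRL (rows of panels) in every library of 4 lines (columns), with blue points for control groups, red points for KD or KO groups, and mean and SD (n = 3) in black; OE is TRA2B-OE. OFD1 is low in both NCI-H23 groups that lack TRA2A and in LN319 Luc TRA2A KO, and the 1 high A549 Control KD point in each panel is replicate 3.

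Loss of TRA2B alone called no member in A549, NCI-H23 or LN229. TRA2A RNA in these lines was at 130%, 149% and 155% of control. It was called higher in NCI-H23 (adjusted p = 0.0259) and LN229 (adjusted p = 0.00553), not in A549. The counts at an unadjusted p under 0.05 by limma were 4, 5 and 4 of 34, and the shares of all genes called lower were 0.061%, 0.0368% and 0.341%, and higher 0.28%, 0.16% and 0.227%. As deposited, the share of higher calls went from 81.2% to 93.8% in NCI-H23 and from 40% to 51.2% in LN229. In NCI-H23 OFD1 was at 15.7, 12.5 and 12.0 TPM in TRA2B KD, spanning the controls (-0.09 ± 0.13, adjusted p = 0.829), where TRA2A KD lay at 6.65 to 8.87. In A549 the median fold change of the members was -0.23, with 30 of 34 below 0, against 0.03 over all genes, and without Control KD replicate 3 the median was -0.11. In LN229 leaving out Luc Control KO replicate 1 changed the count from 0 to 9 lower members, among them PLK4 (-0.89), STIL (-0.74) and SASS6 (-0.60), beside 11.7% of all genes lower. PLK4 was at 21.3, 42.5 and 44.4 TPM in the 3 control libraries and 19.4, 26.0 and 27.7 after TRA2B KO, so the low control value is that of replicate 1.

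LN319 differed, since TRA2B KO called 2 members lower and 7 higher. TRA2A RNA was itself lower there, at 84.6% of Luc Control KO (adjusted p = 0.00396), and its part in the result was not tested. Over all genes 24% were lower and 18.6% higher, so with this scaling and filter the 20.6% of members called higher is near the background. More members were called higher with TPM as deposited, quantile normalization or a minimum of 5 TPM, and fewer with no filter, as given below. CENPJ, which elongates centrioles, rose most, from 40.5, 47.7 and 40.04 TPM to 73.5, 67.2 and 68.4 (0.60 ± 0.13, adjusted p = 0.00253). CEP152, which brings PLK4 to the centriole, rose from 13.2, 15.04 and 16.5 TPM to 21.5, 22.2 and 20.7 (0.42 ± 0.14, adjusted p = 0.033). AKAP9, an anchor for kinases and microtubule nucleators, rose from 36.3, 39.0 and 33.8 TPM to 49.5, 52.7 and 47.2 (0.35 ± 0.07, adjusted p = 0.00127). In all 3 genes every KO library lay above every control. ODF2 (0.26), a subdistal appendage protein, CCP110 (0.22), a cap of the distal centriole, OFD1 (0.22) and PCNT (0.15), the large coiled-coil scaffold of the pericentriolar material, also rose. OFD1 thus moved from 32.6, 32.3 and 30.0 TPM to 41.1, 38.9 and 39.0 after TRA2B KO, the opposite side of control from TRA2A KO.

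CEP76, which limits centriole reduplication, fell from 13.6, 12.3 and 13.99 TPM to 10.98, 11.4 and 11.2 in LN319 TRA2B KO (-0.35 ± 0.10, adjusted p = 0.0111). CEP83, which roots the distal appendages, fell from 24.2, 25.7 and 23.03 TPM to 21.4, 22.3 and 20.2 (-0.30 ± 0.09, adjusted p = 0.0134). On the deposited scale 22 of 34 members (64.7%) had all KO libraries above all controls, where 33.1% of all genes did, and 2 members (5.88%) had all below, where 22.1% did. The scale matters here. With TPM as deposited the median of all genes was itself 0.12, members called were 1 lower and 11 higher, and higher calls made up 56.4% of all calls in place of 43.7%. Of 19303 genes tested, 3581 were lower and 4639 higher on that scale. Mitochondrial transcripts took 18.3 to 20.6% of TPM in TRA2B KO and 12.1 to 12.8% in Luc Control KO, 18 of 43 S phase and 35 of 52 G2/M genes tested were lower and 4 and 3 higher, and the part of neither in the result was tested. The calls of CENPJ, AKAP9, ODF2 and CEP76 stood when any 1 library was left out. Those of CEP152 (without control 1 or 2 or any KO library), CCP110 (control 1 or 2, KO 1 or 3), PCNT (control 2 or 3, KO 2 or 3), OFD1 (control 3 or KO 1) and CEP83 (KO 3) did not.

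Loss of both paralogs by CRISPRi moved about as many members in A549 as in NCI-H23, mostly downward. In A549 14 members (41.2%) were lower and 2 (5.88%) higher, against 16.3% and 14.3% of all genes tested. In NCI-H23 17 members (50%) were lower and 3 (8.82%) higher, against 23.2% and 20% of all genes. The median fold change of the members was -0.47 in A549 and -0.28 in NCI-H23, where the medians of all genes were 0.03 and 0.02. Without Control KD replicate 3 the A549 median was -0.31. Of those that fell, 8 in A549 and 5 in NCI-H23 did so by over 2-fold, as did 5.27% and 5.74% of all genes, and no member rose by over 2-fold, as 7.53% and 7.08% of all genes did. Without Control KD replicate 3 only CEP78 (-1.05) and PLK4 (-1.01) of the A549 members fell by over 2-fold. The share over all genes was not counted in that fit. On the deposited scale 13 members (38.2%) had all dual KD libraries below all controls in A549 and 13 in NCI-H23, against 17.7% and 19% of all genes, and 2 (5.88%) and 6 (17.6%) had all above, against 23.8% and 33.1%. Each line has its own controls and table, and of the members lower in either, 10 were lower in both, 71.4% of the A549 set and 58.8% of the NCI-H23 set, where over all genes tested in both lines the shares were 68.7% and 47.1%. These were CDK5RAP2, CEP164, CEP250, CEP70, CEP78, CNTRL, NIN, OFD1, PCNT and PLK4. No member was called in opposite directions. None was higher in both, but without A549 Control KD replicate 3 AKAP9 and CEP120 were. In bulk libraries fewer cells with a transcript and less of it per cell cannot be told apart.

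**Figure D4:**
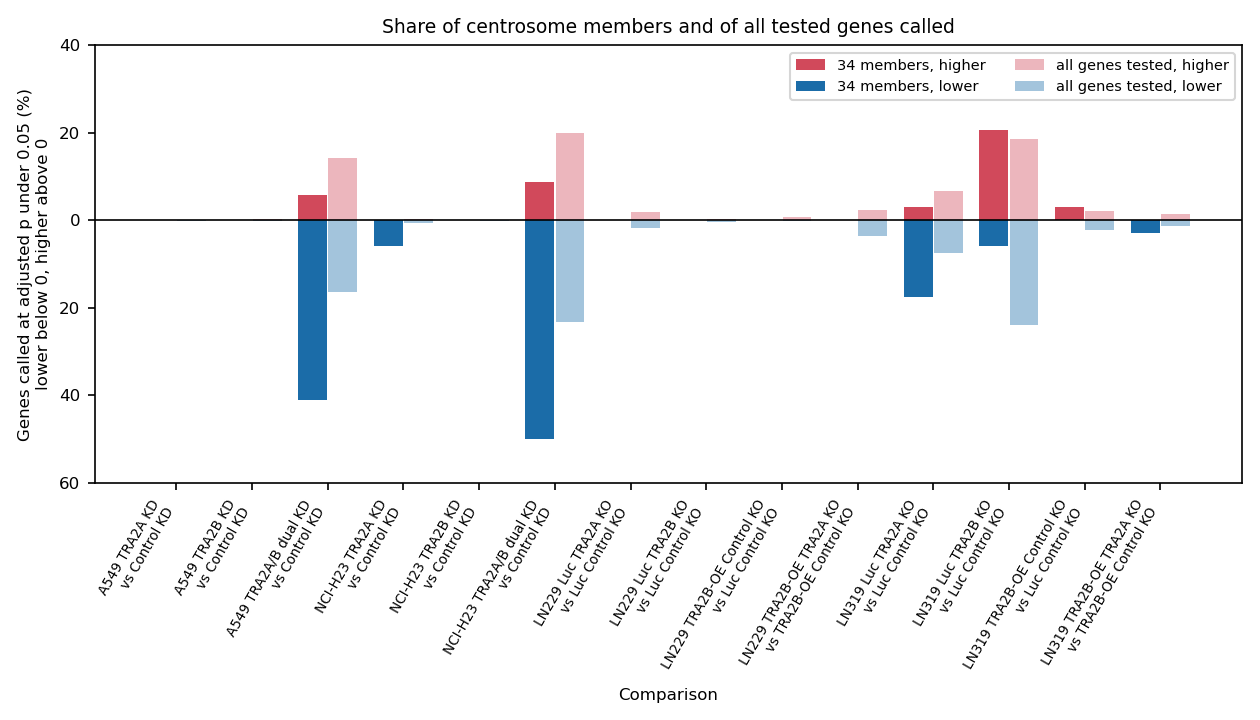
Percent of the 34 genes (dark bars) and of all genes tested (pale bars) called higher (red, above 0) and lower (blue, below 0) in 14 comparisons. In both dual KDs the members' share of lower calls is above that of all genes (41.2% against 16.3% and 50% against 23.2%) and their share of higher calls is below it.

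Leaving out 1 library at a time gave 12 to 16 lower and 0 to 4 higher members in A549 and 15 to 17 lower and 3 to 5 higher in NCI-H23. Without Control KD replicate 3 the A549 counts were 15 and 4, beside 21.2% and 16.6% of all genes. With TPM as deposited the counts were 12 lower and 2 higher in A549 and 12 lower and 6 higher in NCI-H23, and the medians of all genes were 0.11 and 0.17. With only the groups compared fitted, 10 members were lower and 0 higher in A549, beside 9.53% and 8.28% of all genes. Higher calls with TPM as deposited made up 57% of all calls in A549 in place of 46.6%, and 63% in NCI-H23 in place of 46.2%. Lists of cell cycle genes moved with the members: 37 of 43 S phase genes and 44 of 52 G2/M genes tested were lower in the A549 dual KD, with medians of -1.10 and -1.29, and 41 of 43 and 47 of 52 were lower in NCI-H23, with medians of -0.85 and -0.85. None of either list was higher, no member is in these lists, and their part in the change of the members was not tested.

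The satellite and cilium base genes were led by OFD1. In the A549 dual KD it was at 10.4, 7.13 and 9.98 TPM against 15.03, 14.2 and 38.6 in Control KD, below every control (-1.23 ± 0.30, adjusted p = 0.00977). Without Control KD replicate 3 its fold change was -0.86, and it was called in every leave-one-out fit, though not when only the groups compared were fitted (adjusted p = 0.0521). In the NCI-H23 dual KD it was at 6.84, 6.49 and 7.20 TPM against 12.5, 13.4 and 13.3 (-1.08 ± 0.13, adjusted p = 5.91e-05). The dual KD libraries of NCI-H23 overlapped those of TRA2A KD alone there (6.65, 8.87 and 7.60 TPM). A departure of the dual KD from the sum of the single changes was not called (-0.24 ± 0.18, adjusted p = 0.376). The dual KD left 20.5% of TRA2A RNA in NCI-H23 and TRA2A KD alone 6.54%. OFD1 has pseudogene copies, among which the read assignment could split reads. PCM1 fell in A549 (-0.78), where its dual KD libraries at 57.8, 48.5 and 51.2 TPM overlapped controls at 57.6, 69.2 and 155. Its call was lost without dual KD replicate 2 or 3, and without Control KD replicate 3 it was called at -0.44. It was not called in NCI-H23 (-0.26). CEP290, a gatekeeper of the ciliary transition zone, was called in neither (-0.10 and -0.39), with 0.10 in A549 without Control KD replicate 3.

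Genes of appendages and microtubule anchoring were lower in 5 of 7 cases in A549 and 4 of 7 in NCI-H23, and higher in none. Of all genes 16.3% and 23.2% were lower and 14.3% and 20% higher. CNTRL was at 5.05, 2.22 and 3.43 TPM in the A549 dual KD against 5.25, 6.26 and 10.4 (-1.10 ± 0.28, adjusted p = 0.0129), a call lost with only the groups compared fitted (adjusted p = 0.0755). In NCI-H23 it was at 5.09, 5.02 and 6.97 against 10.3, 10.8 and 10.3 (-1.04 ± 0.11, adjusted p = 2.44e-05). The 3 dual KD libraries lay below the controls in both lines, and in NCI-H23 the dual change exceeded the sum of the single changes by -0.68 ± 0.15 (adjusted p = 0.00969). CEP83 had the largest fall of any member in NCI-H23, from 49.1, 50.9 and 45.8 TPM to 18.8, 20.7 and 20.9 (-1.42 ± 0.13, adjusted p = 1.13e-05). In A549 it was not called (-0.35 ± 0.21). CEP164 fell in both (-0.59 and -0.49), as did NIN (-1.01 and -0.52), ninein, which anchors microtubule minus ends. CEP89 (-0.52), a distal appendage protein, and ODF2 (-0.41) fell in A549 and were at -0.15 and -0.16 in NCI-H23, not called. CEP350 was not called (-0.23 and 0.14), and its A549 value was 0.19 without Control KD replicate 3.

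Of the pericentriolar material and gamma-tubulin genes, PCNT (-1.01 and -0.97), CDK5RAP2 (-1.03 and -0.77), which activates gamma-tubulin complexes, and CEP70 (-0.82 and -1.04) fell in A549 and NCI-H23. CEP192 did not, although it shares the RT-PCR set with OFD1 and CNTRL. Its dual KD libraries were at 8.55, 6.21 and 5.74 TPM in A549 against 7.63, 7.13 and 16.1, and the groups overlapped (-0.58 ± 0.25, adjusted p = 0.109). The value was -0.30 without Control KD replicate 3, and over the leave-one-out fits the adjusted p ran from 0.0587 to 0.293. In NCI-H23 they were at 22.7, 21.4 and 24.2 against 17.9, 21.1 and 21.5 (0.02 ± 0.10, adjusted p = 0.874). AKAP9 went the other way in NCI-H23, from 17.7, 16.5 and 18.6 TPM to 35.9, 33.5 and 37.96 (0.86 ± 0.11, adjusted p = 0.000115). It was at 0.41 ± 0.22 in A549, not called, where without Control KD replicate 3 it was 0.67 and called. TUBGCP3 rose in A549, from 11.6, 14.4 and 14.7 TPM to 18.9, 17.2 and 19.4 (0.37 ± 0.12, adjusted p = 0.0382), a call lost without Control KD replicate 1 or 3 or any 1 dual KD library. TUBGCP2 fell in NCI-H23 (-0.40), and CEP57 was called in neither line.

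All 6 duplication genes had a negative fold change in both lines, as did 7868 of 16405 genes in A549 and 7967 of 16293 in NCI-H23. Of the 6, 1 was called in A549, where 16.3% of all genes were lower, and 5 in NCI-H23, where 23.2% were. PLK4 was the one in A549, falling from 19.8, 27.1 and 31.9 TPM to 14.2, 12.8 and 11.8 (-1.07 ± 0.16, adjusted p = 0.000525). In NCI-H23 it fell from 27.3, 35.4 and 33.3 TPM to 20.4, 23.5 and 26.3 (-0.60 ± 0.12, adjusted p = 0.00215), with SASS6 (-0.72), the cartwheel protein, CEP152 (-0.56), STIL (-0.29) and CEP85 (-0.23), a partner of STIL. In A549 these 4 ranged from -0.59 (SASS6) to -0.40 (STIL) and were not called. They ranged from -0.43 (SASS6) to -0.06 (CEP152) without Control KD replicate 3, where CEP63 was called at -0.39 in place of -0.31. The S phase and G2/M lists named above fell in the same libraries.

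The 8 genes of centriole elongation and capping did not share a direction. CEP78, a distal centriole protein, fell in both lines. It was at 5.09, 4.62 and 5.33 TPM in the A549 dual KD against 9.12, 9.39 and 10.8 (-1.03 ± 0.19, adjusted p = 0.0022) and at 7.66, 4.91 and 5.998 in NCI-H23 against 11.5, 14.4 and 9.70 (-1.09 ± 0.22, adjusted p = 0.00224). CENPJ fell in A549, from 12.2, 16.0 and 27.3 TPM to 10.3, 6.25 and 9.35 (-1.12 ± 0.22, adjusted p = 0.00363), and was at -0.09 ± 0.16 in NCI-H23. CCP110 fell in NCI-H23 alone (-0.65 ± 0.10) and was at -0.07 in A549 (-0.02 without Control KD replicate 3), a difference between lines that was not tested. In NCI-H23 CEP44, which helps centrioles become centrosomes, rose from 5.98, 7.40 and 5.94 TPM to 12.5, 10.6 and 12.3 (0.71 ± 0.14, adjusted p = 0.00156). CEP120, an elongation factor, rose there from 10.4, 9.19 and 8.30 TPM to 14.3, 14.1 and 16.3 (0.52 ± 0.12, adjusted p = 0.00466). In A549 CEP44 was at -0.59 and CEP120 at 0.42, neither called. Without Control KD replicate 3 CEP44 was at -0.22, and CEP120 (0.81) and CEP97 (0.62 in place of 0.45) were called higher. CEP76 and CEP135 were called in neither line, with or without that library.

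Both genes of the centriole linker were called in A549, in opposite directions, where 16.3% of all genes were lower and 14.3% higher. CEP250, the linker scaffold, fell from 42.9, 43.6 and 84.0 TPM to 36.1, 24.3 and 27.7 (-0.97 ± 0.21, adjusted p = 0.0051), and in NCI-H23 from 97.0, 93.3 and 95.3 to 56.3, 73.3 and 68.8 (-0.69 ± 0.16, adjusted p = 0.0043). CEP68, its filament partner, rose in A549 from 5.91, 6.46 and 9.19 TPM to 9.49, 9.82 and 11.3 (0.44 ± 0.15, adjusted p = 0.0422). The call of CEP68 was lost without Control KD replicate 1 or 2 or any 1 dual KD library, and it was at 0.08 in NCI-H23. Of the other called members of the dual KDs, leave-one-out fits lost CEP70 in A549 (without Control KD 1 or dual KD 2) and, in NCI-H23, STIL (control 1 or 3, dual KD 1 or 3), CEP85 (control 2 or 3, dual KD 3), CEP152 (control 1) and NIN (dual KD 1). The others kept their call in each.

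**Figure D5:**
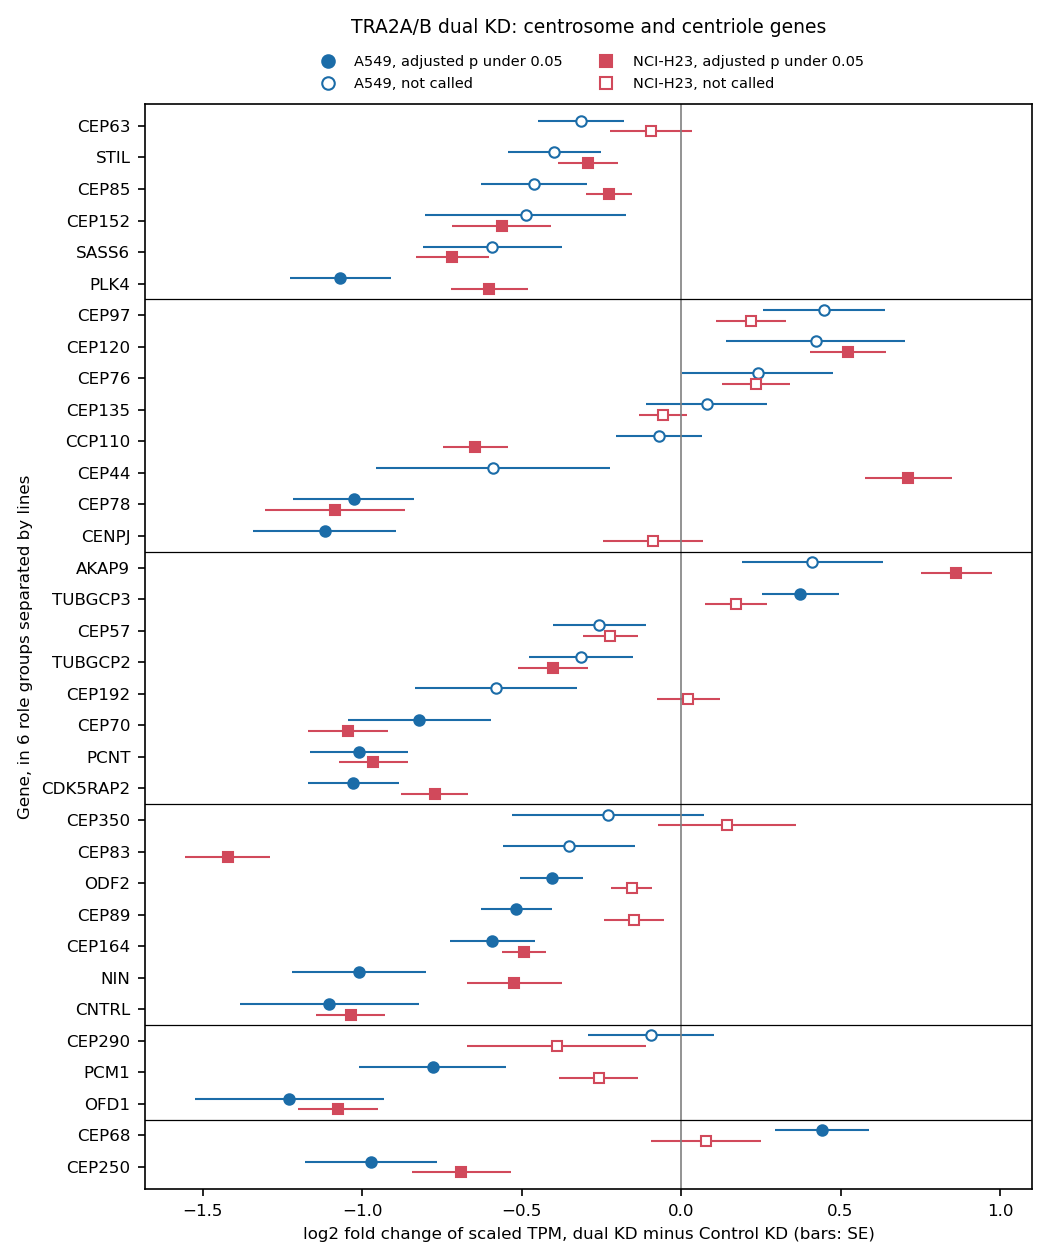
Log2 fold change (dual KD minus Control KD, scaled TPM; bars, SE) of the 34 genes in A549 (blue circles) and NCI-H23 (red squares), in 6 role groups in the order of the heat map, filled where adjusted p was under 0.05. All 6 duplication genes lie left of 0 in both lines, the elongation genes scatter on both sides, and CEP83 in NCI-H23 lies farthest left at -1.42.

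The dual KD was also set against the sum of the TRA2A KD and TRA2B KD changes on the log2 scale. It left more TRA2A and TRA2B RNA than the single KDs, by the values given above, which this test does not allow for. In A549 3 members departed from the sum (2 lower, 1 higher), where 8.89% of all genes were lower than the sum and 5.84% higher. In NCI-H23 8 members were lower than the sum and 1 higher, where 12.8% and 8.23% of all genes were. OFD1 was not among them in either line, with -0.05 ± 0.42 in A549 and the value above in NCI-H23. The 3 in A549 were PLK4, CEP78 and CEP68, and each lost its call without most single libraries (PLK4 without any but Control KD 2 or 3 or TRA2B KD 3, CEP78 without any but Control KD 2 or 3 or TRA2A KD 2 or 3, CEP68 without any but a Control KD library or TRA2A KD 1). Without Control KD replicate 3 the A549 counts were 8 lower and 3 higher, beside 13.1% and 8.72% of all genes. With TPM as deposited they were 0 lower and 2 higher, with a member median of 0.07 in place of -0.25. In NCI-H23 CEP70 departed most (-1.27 ± 0.18, adjusted p = 0.000654), and PCNT lost its call without TRA2B KD replicate 1. With TPM as deposited higher calls made up 72.7% of calls over all genes in A549 (39.6% after scaling), with a median of all genes of 0.26, and 49.5% in NCI-H23 (39.1% after scaling).

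TRA2B-OE asks whether more TRA2B alters the response to TRA2A KO. By itself, in LN319, it raised CDK5RAP2 from 80.8, 82.8 and 89.5 TPM to 117, 103 and 99.3 (0.25 ± 0.06, adjusted p = 0.0392), the only member called, where 2.16% of all genes were lower and 2.16% higher. That call was lost without Luc Control KO replicate 1 or 2 or TRA2B-OE Control KO replicate 1 or 2. OFD1 was at 38.8, 39.9 and 38.5 TPM in TRA2B-OE Control KO, above every Luc Control KO library as for 16.4% of genes, and was not called (0.22 ± 0.06, adjusted p = 0.064). In LN229 no member was called, with 3 at an unadjusted p under 0.05 by limma, and 0.233% of all genes were lower and 0.795% higher. With TPM as deposited higher calls over all genes went from 50% to 72.2% of calls in LN319 and from 77.4% to 89.9% in LN229.

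In LN319 cells with TRA2B-OE, TRA2A KO called only OFD1, where 1.29% of all genes were lower and 1.48% higher. It fell from 38.8, 39.9 and 38.5 TPM to 30.3, 33.2 and 29.2, without overlap (-0.28 ± 0.06, adjusted p = 0.033). The call was lost when any 1 of the 6 libraries was left out, with fold changes from -0.32 to -0.25 and adjusted p from 0.0528 to 0.129. CNTRL was at 17.3, 16.7 and 14.7 TPM against 20.1, 18.0 and 17.2 and CEP192 at 23.6, 24.7 and 19.5 against 29.5, 26.3 and 26.9, neither called. TRA2A KO left 52.8% of TRA2A RNA with TRA2B-OE and 33.2% with Luc, each of its own control. The part of this in the differences that follow was not tested. The response of OFD1 to TRA2A KO was smaller in size with TRA2B-OE than with Luc by 0.26 ± 0.09, which did not pass the test over all genes (adjusted p = 0.486). That of CNTRL differed by 0.26 ± 0.12 (adjusted p = 0.641) and that of CEP192 by 0.02 ± 0.11. No member passed this test of the difference in LN319 or in LN229, where 0.0207% and 0% of all genes did. With an unadjusted p under 0.05 by limma there were 5 members in LN319 and 1 in LN229. In LN229 cells with TRA2B-OE, TRA2A KO called no member either, with 3 at an unadjusted p under 0.05, while 3.64% of all genes were lower and 2.43% higher. OFD1 there was at 12.9, 12.6 and 10.6 TPM against 13.8, 11.4 and 10.4. TRA2A RNA of that group was not called lower than in TRA2B-OE Control KO, where TRA2A was already below Luc Control KO. As deposited, higher calls after TRA2A KO with TRA2B-OE went from 53.4% to 28.4% of calls in LN319 and from 40% to 51.4% in LN229.

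A further 57 centrosome genes outside the list were examined as a group. In the A549 dual KD 18 of 56 tested (32.1%) were lower and 8 (14.3%) higher, with a median of -0.26, against 16.3% and 14.3% of all genes. In NCI-H23 22 of 57 (38.6%) were lower and 7 (12.3%) higher, with a median of -0.19, against 23.2% and 20% of all genes. LRRC45, a protein of the linker, SSX2IP, which recruits gamma-tubulin complexes, and WDR90, a protein of the centriole wall, were the 3 that fell most in each line. WDR90 fell from 101, 113 and 119 TPM to 35.3, 26.8 and 34.9 in NCI-H23 (-1.94 ± 0.09) and from 55.5, 52.7 and 99.6 to 28.2, 20.5 and 23.8 in A549 (-1.54 ± 0.21). LRRC45 fell by 2.02 in A549 and 1.67 in NCI-H23 on the log2 scale, and SSX2IP by 1.67 and 1.17. The 3 that rose most were CEP85L (1.67), TTBK2 (0.98) and PIBF1 (0.98) in A549 and CEP95 (0.70), PIBF1 (0.68) and CEP19 (0.65) in NCI-H23. In LN319 10 of 57 (17.5%) were lower and 3 (5.26%) higher after TRA2A KO. The shares there were 7.44% and 6.82% of all genes and 17.6% and 2.94% of the members. After TRA2B KO 15 (26.3%) were lower and 12 (21.1%) higher, near the 24% and 18.6% of all genes.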

How the data were processed

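The deposited files hold TPM per gene, 1 table per cell line, which the authors made with kallisto 0.48.0 on Gencode v34 transcripts, per the labels and the methods of the study. Sequencing was of poly(A) RNA, and STAR 2.7.3 served splicing only. TPM keeps no read depth, so counting error per value is unknown.

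A gene was tested in a line if 4 or more libraries reached 1 TPM, which left 16405 genes for A549, 16293 for NCI-H23, 18490 for LN229 and 19303 for LN319. Libraries were scaled by a trimmed mean of log ratios (trims 0.3 and 0.05, factors 0.892 to 1.20). Limma 3.58.1 in R 4.3.3 was fitted with a mean-variance trend to log2(TPM + 0.1) of all groups, with Benjamini-Hochberg adjustment within each comparison. Fold changes on this scale understate changes of low genes, and levels are printed as deposited. On simulated data, of 200 genes moved 2-fold per comparison, 44 to 46% were recovered in A549, 57 to 58% in NCI-H23, 60 to 66% in LN229 and 65 to 75% in LN319. The members and lists were chosen with earlier results of these data known. Named genes were CEP192, OFD1 and CNTRL, and per comparison and direction the 3 called members with the largest fold change and no overlap of libraries, others being given by fold change within their role. The alternatives were other pseudocounts, filters, scalings and designs, a replicate block, and each library left out.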

Additional observations from a re-analysis of the deposited data

Results flagged for a closer look

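The values below are departures of the dual KD from the sum of the single KD changes on the log2 scale, each past an adjusted p of 0.05 in limma. In NCI-H23 these were CEP70 (-1.27), SASS6 (-0.95), CEP83 (-0.73), PLK4 (-0.70), CCP110 (-0.69), CNTRL (-0.68), CDK5RAP2 (-0.62), PCNT (-0.58) and AKAP9 (0.74). In A549 they were CEP78 (-0.99), PLK4 (-0.78) and CEP68 (0.78). CEP164 lay below its controls in every LN229 Luc TRA2B KO library (-0.26, adjusted p = 0.103) and above them in every LN319 Luc TRA2B KO library (0.16, adjusted p = 0.206), and the difference between the lines was not tested.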

How the results depend on the processing

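With a minimum 2-fold change, the lower members were 8 in the A549 dual KD, 5 in the NCI-H23 dual KD and 0 in NCI-H23 TRA2A KD and in all LN319 comparisons, and the higher members were 0 throughout. Without A549 Control KD replicate 3 those of the A549 dual KD were CEP78 and PLK4 alone. With only the compared groups fitted, the counts were 0 lower in NCI-H23 TRA2A KD, 3 lower and 0 higher in LN319 TRA2A KO, 0 higher in the A549 dual KD and in LN319 TRA2B-OE Control KO, and 0 lower in LN319 TRA2B-OE TRA2A KO. Over all genes that fit called 3 of 16293 lower in NCI-H23 TRA2A KD and 1358 of 16405 higher in the A549 dual KD. With no filter the higher members were 0 in the A549 dual KD, LN319 TRA2A KO and LN319 TRA2B-OE Control KO and 3 in LN319 TRA2B KO, and 0 departed from additivity in A549. In A549 2674 of 37034 genes were then higher in the dual KD, and 1231 lay below and 847 above additivity. As deposited, the higher members were 6 in the NCI-H23 dual KD, 0 in LN319 TRA2A KO, 11 in LN319 TRA2B KO (1 lower) and 2 in LN319 TRA2B-OE Control KO. Over all genes the higher calls were 4372 of 16293 in the NCI-H23 dual KD. They were 956, 4639 and 655 of 19303 in the LN319 comparisons, in the same order. Quantile normalization gave 0 higher in the A549 dual KD, 12 in LN319 TRA2B KO and 2 in LN319 TRA2B-OE Control KO. Over all genes its higher calls there were 2324 of 16405, 3455 of 19303 and 472 of 19303. A minimum of 5 TPM gave 12 and 2 higher members in those LN319 comparisons. Removing the length and GC trend gave 6 departures from additivity in A549, beside 1521 lower and 925 higher of 16405 genes. The cause of these differences was not tested. Where no count over all genes stands beside a member count in this section, a shift of all genes cannot be told apart from it.

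Leaving out 1 library gave 0 to 4 higher members in the A549 dual KD, 0 to 11 departures from additivity in A549, 1 to 2 lower in NCI-H23 TRA2A KD, 3 to 5 higher in the NCI-H23 dual KD, 0 to 9 lower in LN229 TRA2B KO and 0 to 1 in LN229 TRA2B-OE TRA2A KO. In LN319 it gave 4 to 5 lower and 0 to 1 higher for TRA2A KO, 1 to 2 lower and 4 to 7 higher for TRA2B KO, 0 to 1 lower and 0 to 2 higher for TRA2B-OE Control KO, and 0 lower for TRA2B-OE TRA2A KO.

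Replicate numbers are shared between groups, but same-numbered libraries had correlations of deviations from -0.154 to 0.212, so they were not taken as paired. Each library correlated best with its own number in 1 of 14 comparisons. In LN229 replicate 1 correlated best with its own number for Luc TRA2A KO (0.160), TRA2B-OE Control KO (0.212) and TRA2B-OE TRA2A KO (0.0872). Over all genes the block took LN229 calls from 338 lower and 343 higher to 830 and 755 for Luc TRA2A KO. For Luc TRA2B KO it took them from 63 and 42 to 751 and 546. In A549 and NCI-H23 the block gave fewer calls. The LN229 results above are from the fit without it. With the replicate block, the counts were 0 higher members and 1 departure from additivity in the A549 dual KD, 1 lower in NCI-H23 TRA2A KD, 1 lower in LN229 TRA2A KO, 1 lower in LN229 TRA2B KO, and 1 lower and 3 higher in LN319 TRA2B-OE Control KO.

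Fold changes that were not called changed sign for CEP192 in A549 TRA2A KD (-0.030 as deposited, -0.058 to 0.40 leaving out 1 library), in NCI-H23 TRA2A KD (-0.032 to 0.17 leaving out 1 library) and in the NCI-H23 dual KD (-0.054 with no filter, -0.00477 without the length and GC trend, -0.018 to 0.058 leaving out 1 library), and for OFD1 in LN229 TRA2B-OE TRA2A KO (-0.034 with no filter, -0.067 to 0.10 leaving out 1 library). CEP192 was called in the A549 dual KD with quantile normalization (-0.70) and without the length and GC trend (-0.65), and its call in LN319 TRA2A KO was lost under both other filters, both other scalings and the fit of the compared groups alone. The length and GC correction was not run in LN229 and LN319, where 78.4% and 78.2% of genes had both properties, and a fit of only the compared groups does not exist for departures from additivity.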
